A study of Mus musculus with 12 samples.

Results

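Notch1, Notch2, Notch3, Dll1, Dll4, Jag1, Jag2, Hes1, Atoh1 and Gfi1, which are receptors, ligands, a target gene and fate factors of the Notch pathway, were described across the 4 groups of a study of the mouse gut. A gene was read from a probe set that the platform annotation pairs with that gene alone. Each of the 10 genes had 1 such probe set, out of 35556 on the array, and they are 10 of the 18820 genes tested. RNA from the proximal jejunum, the upper small intestine, of 12 mice was hybridised to 1 Affymetrix array per mouse. The study asked about intestinal mucositis, damage that chemotherapy does to the lining of the gut, in mice with and without TLR2, a receptor for bacterial lipoproteins. Treated mice were given methotrexate (MTX), an antifolate drug that blocks DNA synthesis, at 40 mg per kg of body weight per day into the peritoneum for 4 days, and were killed on day 7. The groups were treated knockout mice (B6.129-Tlr2tm1Kir/J, called KO here), treated wild-type mice (C57BL6/J, WT), untreated KO mice and untreated WT mice, with 3 mice in each. The untreated mice are labelled as healthy, and the labels give neither a vehicle injection nor a day of sacrifice for them, so drug, injection and timing cannot be told apart. The labels give no breeding history that ties the KO mice to the WT mice, so the TLR2 allele and other differences between the strains cannot be told apart.

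Notch receptors are activated by Delta-like and Jagged ligands on neighbouring cells and are then cut, which frees an intracellular part that joins RBPJ in the nucleus and switches on targets such as Hes1. In intestinal crypts Hes1 represses Atoh1, so that cells with Notch signalling become absorptive, while cells that escape it express Atoh1 and its target Gfi1 and become secretory (goblet, Paneth, enteroendocrine and tuft cells). Notch receptors and ligands are also used by blood vessels and the smooth muscle around them, where Notch3, Jag1 and Dll4 are well known.

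The values are log2 signals after RMA, which normalises arrays and combines the probes of a probe set, so a difference of 1 is a 2-fold difference in signal. Arrays correlated at r of 0.967 to 0.992 within groups, at 0.916 to 0.948 between treated KO arrays and the rest, and at 0.964 to 0.990 among the other groups. Tlr2 itself lay at 5.28 to 6.18 in treated KO mice, 4.49 to 4.65 in treated WT mice, 4.36 to 5.02 in untreated KO mice and 4.37 to 4.65 in untreated WT mice. The sources do not say whether the Tlr2 probes fall inside the targeted stretch, so this checks neither the genotype nor the labels. The mean of 12 pancreatic acinar genes split the arrays into 7 high ones (11.7 to 12.4) and 5 low ones (3.79 to 5.10). The high arrays were 2 of 3 treated KO, 1 of 3 treated WT, 2 of 3 untreated KO and 2 of 3 untreated WT arrays. Values on both sets are given where a call on the 10 genes in treated KO mice changes between them. In both KO groups and untreated WT mice replicate 1 alone was low. A comparison of KO groups on the low arrays thus sets a lone array against a lone array. Only the treated WT arrays show a spread within a group there. Counts on either set assume that a lone array varies like the others. Markers of absorptive enterocytes, the main cell of the jejunal lining, averaged 6.36 to 8.46 in treated KO mice, against 11.3 to 11.7 in the other 3 groups. Markers of the distal gut averaged 2.81 to 3.10 on all arrays.

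Promoter windows were available for 9 of the 10 genes, with more than 1 start site for Dll1 and Gfi1, giving 11 windows of 250 bases upstream of a start site. The gene without a window was Hes1, so the counts below say nothing about its promoter. They come from RefSeq on build GRCm38.p6 and were searched on both strands for TGGGAA, the core of the RBPJ site, for CACNAG, the N-box bound by Hes factors, and for CAGCTG, an E-box form bound by Atoh1. TGGGAA was in 0 of the 11 windows and in 21.6% of all 32851 promoters of the table. CACNAG was in 4 windows (Notch1, Notch2, Notch3 and Dll4), against 36.7% of all promoters. CAGCTG was in 2 windows (Jag1 and a start site of Dll1), against 13% of all promoters. The windows shown are those of Notch3, Jag1 and Jag2, which had higher signal in treated KO mice, and of Dll1, which had lower signal, so that genes that moved in opposite directions can be read side by side. Capitals mark matches, and a match is a description of the letters, not a site or a cause. The Notch3 window is chr17:32166891-32167140, minus strand, with CACNAG from -204 to -199 and, on the opposite strand, from -159 to -154 relative to the start site.
Notch3: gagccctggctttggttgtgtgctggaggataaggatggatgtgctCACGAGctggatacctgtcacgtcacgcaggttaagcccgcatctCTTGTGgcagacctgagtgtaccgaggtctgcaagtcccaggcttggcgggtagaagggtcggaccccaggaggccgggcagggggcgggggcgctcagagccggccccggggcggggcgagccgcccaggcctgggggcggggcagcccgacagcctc
The Dll1 window is that of the second start site in the table, chr17:15376933-15377182, minus strand, with CAGCTG from -132 to -127.
Dll1: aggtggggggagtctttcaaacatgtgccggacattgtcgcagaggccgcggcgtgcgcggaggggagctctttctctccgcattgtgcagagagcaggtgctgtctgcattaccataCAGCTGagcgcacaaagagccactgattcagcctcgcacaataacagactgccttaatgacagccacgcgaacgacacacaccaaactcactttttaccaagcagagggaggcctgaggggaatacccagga
The Jag1 window is chr2:137116521-137116770, minus strand, with CAGCTG from -82 to -77.
Jag1: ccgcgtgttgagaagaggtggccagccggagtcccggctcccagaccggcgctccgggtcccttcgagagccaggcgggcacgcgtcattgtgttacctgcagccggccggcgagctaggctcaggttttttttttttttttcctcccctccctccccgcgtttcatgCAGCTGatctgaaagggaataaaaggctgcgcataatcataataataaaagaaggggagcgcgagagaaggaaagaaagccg
The Jag2 window is chr12:112929496-112929745, minus strand, and holds none of the 3 motifs.
Jag2: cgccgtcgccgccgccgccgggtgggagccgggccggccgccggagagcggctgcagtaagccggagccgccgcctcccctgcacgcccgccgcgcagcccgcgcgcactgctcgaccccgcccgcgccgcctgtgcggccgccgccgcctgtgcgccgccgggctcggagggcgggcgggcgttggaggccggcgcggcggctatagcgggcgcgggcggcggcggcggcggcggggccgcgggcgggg

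In KO mice, methotrexate was followed by higher signal of 3 receptors (Notch1, Notch2, Notch3) and of both Jagged ligands, and by lower signal of the ligand Dll1. Dll4, Hes1, Atoh1 and Gfi1 did not pass the test. That made 5 of the 10 genes higher and 1 lower at an adjusted p under 0.05 in limma (Benjamini-Hochberg over 18820 genes), where 34.8% of all genes passed, 18.8% higher and 16.0% lower. The groups did not overlap for 6 of the 10 genes, against 44.6% of all genes. The median change of the 10 genes was 0.36, beside -0.017 over all genes.

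**Figure D1:**
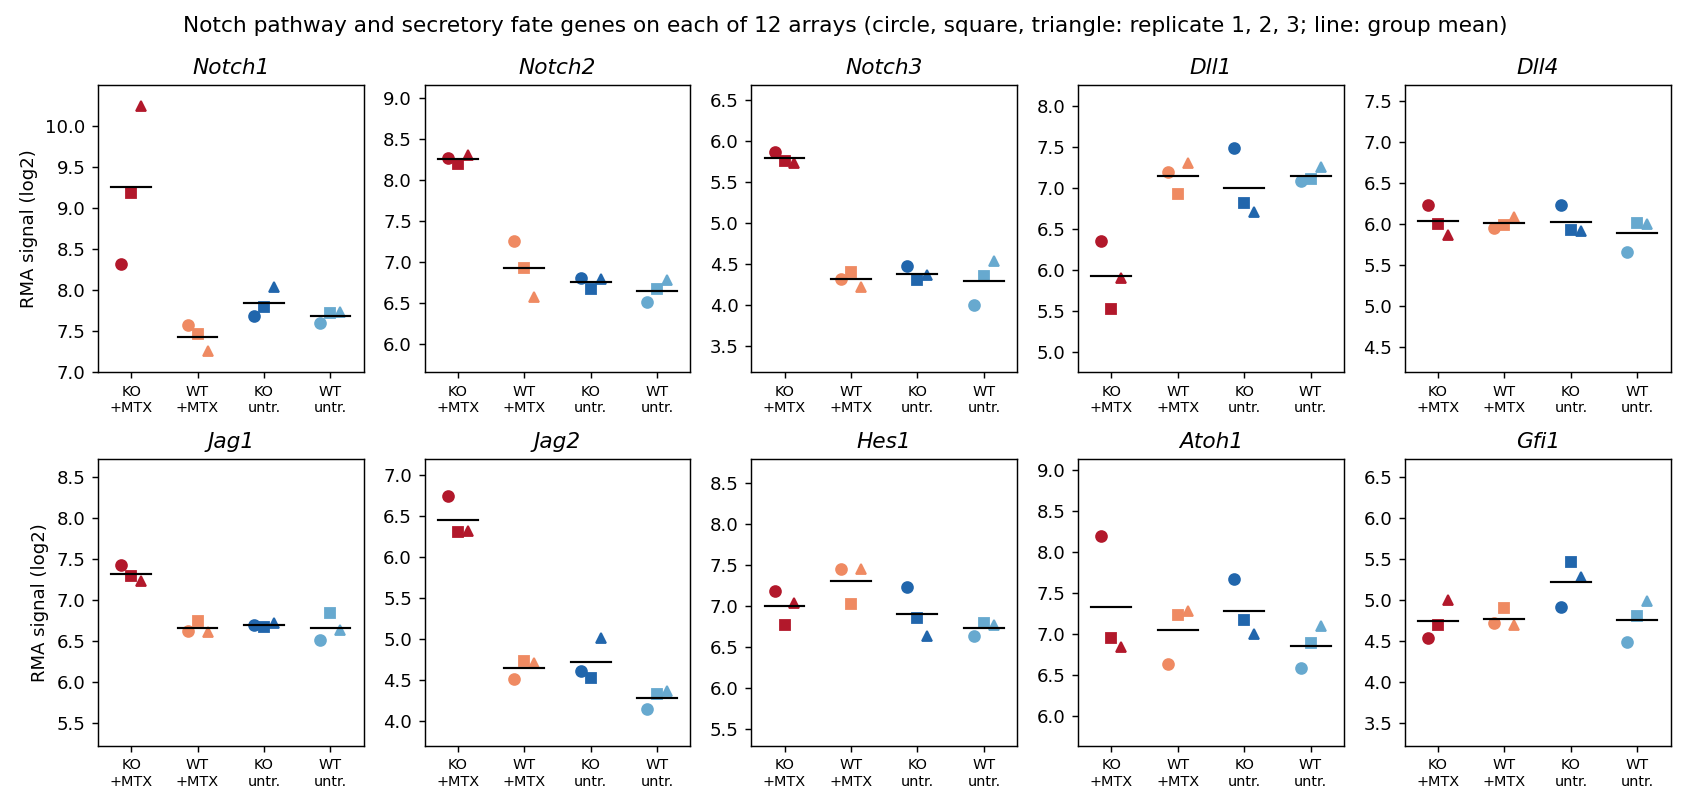
Log2 signal (y axis, RMA, a scale per panel) of the 10 genes on each of the 12 arrays, by group, with points for arrays and lines for group means. The 3 treated KO arrays lie above all 9 others for Notch1, Notch2, Notch3, Jag1 and Jag2 and below them for Dll1.

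Among the receptors, Notch1, the receptor that keeps crypt stem and progenitor cells out of the secretory fate together with Notch2, gave 8.32, 9.18 and 10.24 in treated KO mice, against 7.68, 7.79 and 8.03 in untreated KO mice. It gave 7.57, 7.45 and 7.25 in treated WT mice, against 7.59, 7.71 and 7.72 in untreated WT mice. The treated KO arrays were the highest and also the most scattered, with a SD of 0.965 against 0.182 in untreated KO mice. Notch1 was higher in treated KO mice by 1.41 ± 0.35 on the log2 scale (SE, limma, adjusted p = 0.00867), a 2.67-fold difference. The size rested on single treated KO arrays, at 0.92 without replicate 3 (adjusted p = 0.00910) and 1.88 without replicate 1 (adjusted p = 0.000155). It was 1.80 on the 7 arrays high in acinar genes and 0.64 on the 5 low ones, where each KO group had a lone array. With only the KO arrays in the fit Notch1 did not pass (adjusted p = 0.0593).

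Notch2 was at 8.27, 8.19 and 8.31 in treated KO mice, against 6.81, 6.67 and 6.79 in untreated KO mice. In WT mice it was at 7.26, 6.93 and 6.58 after treatment, against 6.51, 6.67 and 6.77 without it. The treated KO arrays stood close together and above every other array. Its change in KO mice was 1.4965 ± 0.15 (adjusted p = 1.39e-05), a 2.82-fold rise.

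For Notch3, the receptor of pericytes and vascular smooth muscle, the signals were 5.87, 5.76 and 5.73 in treated KO mice and 4.48, 4.30 and 4.37 in untreated KO mice. They were 4.32, 4.399 and 4.22 in treated WT mice and 4.00, 4.35 and 4.54 in untreated WT mice. Again the treated KO arrays alone were high, and the other 3 groups overlapped one another. The rise in KO mice was 1.41 ± 0.13 (adjusted p = 7.88e-06), or 2.65-fold.

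Jag2 had the largest change of the 10 genes in KO mice. This Jagged ligand was at 6.75, 6.31 and 6.32 in treated KO mice, against 4.61, 4.53 and 5.02 in untreated KO mice. It was at 4.52, 4.74 and 4.70 in treated WT mice, against 4.15, 4.34 and 4.37 in untreated WT mice. Treated KO mice were highest, and untreated WT mice were lowest with no overlap with any other group. Its rise in KO mice was 1.74 ± 0.16 (adjusted p = 6.08e-06), or 3.34-fold.

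Jag1, the other Jagged ligand and one that vessels and smooth muscle use, was at 7.42, 7.28 and 7.23 in treated KO mice and 6.69, 6.67 and 6.71 in untreated KO mice. Treated WT mice had 6.62, 6.74 and 6.60, and untreated WT mice had 6.51, 6.83 and 6.63. The change was the smallest of those that passed, and the treated KO arrays still did not overlap any other group. It was 0.62 ± 0.10 in KO mice (adjusted p = 0.000572), or 1.54-fold.

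Dll1, a Delta-like ligand that in the crypt is carried by secretory progenitors, went the other way. Its signals were 6.36, 5.52 and 5.90 in treated KO mice, against 7.50, 6.82 and 6.71 in untreated KO mice. Treated WT mice had 7.20, 6.93 and 7.31, against 7.09, 7.11 and 7.26 in untreated WT mice. The 3 treated KO arrays were the lowest of the 12. Dll1 fell by 1.08 on the log2 scale in KO mice (SE 0.23, adjusted p = 0.00348), a 2.12-fold lower signal.

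The ligand Dll4, which crypt cells and the tip cells of growing vessels use, had 6.23, 5.99 and 5.86 in treated KO mice, against 6.23, 5.92 and 5.91 in untreated KO mice. It had 5.94, 5.99 and 6.08 in treated WT mice, against 5.65, 6.01 and 5.99 in untreated WT mice. All 4 groups overlapped. The difference in KO mice was 0.0083 ± 0.14 (adjusted p = 0.974), with a 95% interval of -0.30 to 0.31, and its sign differed under quantile normalisation (-0.086) and median centring (-0.039).

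Signals of vessel and connective tissue genes moved with those of the receptors and Jagged ligands. Over all genes 18.8% were higher and 16.0% lower in this comparison. Of 14 endothelial markers 12 were higher and 0 lower in treated KO mice, with array means of 7.32 to 7.41, against 6.15 to 6.35 in untreated KO mice. Of 12 markers of pericytes and smooth muscle, 8 were higher and 0 lower, at 8.77 to 8.89 against 7.46 to 8.02, and the count was 5 without treated KO replicate 2 or 3, without untreated KO replicate 2 or 3, or on the 5 arrays low in acinar genes. Higd1b was near background in every group, while Pdgfrb, a pericyte receptor, was higher by 2.33 ± 0.10 (adjusted p = 4.24e-08) and the channel gene Kcnj8 by 3.43 ± 0.23 (adjusted p = 6.22e-07). Of 10 fibroblast markers 9 were higher and 1 lower, at 9.46 to 9.55 in treated KO mice against 7.79 to 8.21 in untreated KO mice. Of 12 neutrophil and macrophage markers 8 were higher and 0 lower, at 6.07 to 7.37 against 4.28 to 4.41. The highest of these means was treated KO replicate 1, and replicates 2 and 3 were at 6.07 and 6.08. In untreated KO mice 6 of the 12 averaged under the 25th percentile of gene means, near background. Lymphocyte and pan-epithelial markers moved the other way. Of 11 lymphocyte markers 8 were lower and 0 higher, at 4.15 to 4.41 in treated KO mice against 5.56 to 5.60 in untreated KO mice, led by the T cell gene Cd8a (-2.16 ± 0.18, adjusted p = 4.17e-06). Of 9 pan-epithelial markers 6 were lower and 1 higher, at 9.47 to 9.90 in treated KO mice against 9.92 to 10.3 in untreated KO mice. The adhesion gene Cdh17 was lower (-0.89 ± 0.09, adjusted p = 1.31e-05) and the keratin gene Krt18 higher (1.28 ± 0.23, adjusted p = 0.000913). The part of these 6 lists in the changes of Notch1, Notch2, Notch3, Jag1 and Jag2 was not tested. In bulk tissue, more or fewer cells of a type and more or less RNA per cell cannot be told apart.

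**Figure D2:**
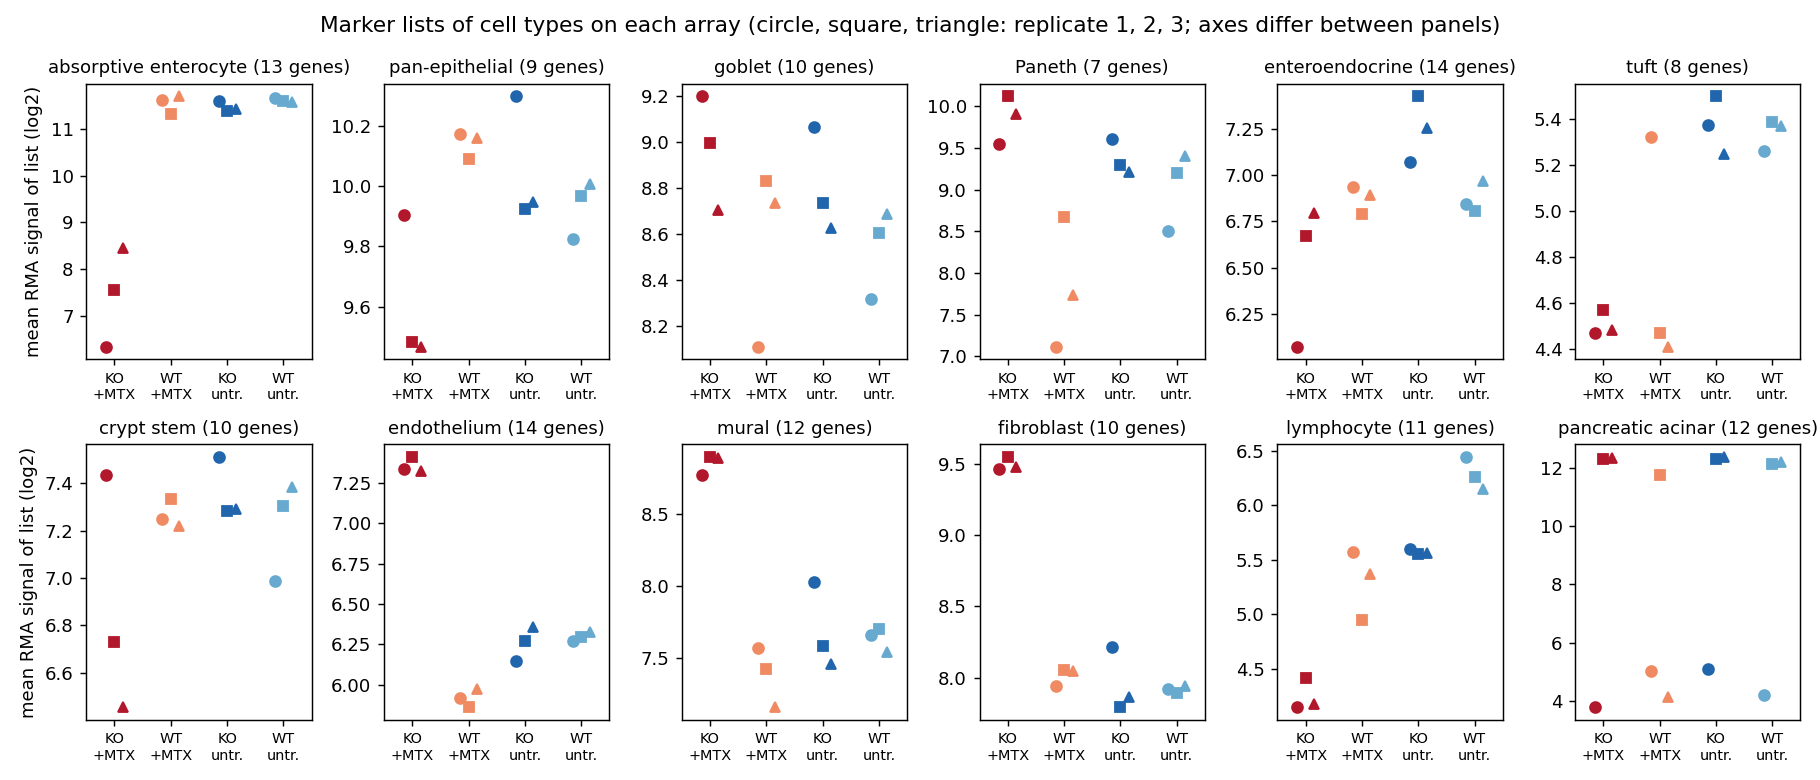
Mean log2 signal (y axis) of marker lists of cell types on each of the 12 arrays, by group, with 1 point per array. Endothelial, mural and fibroblast lists lie higher in treated KO arrays than in untreated KO arrays, and the absorptive list lies lower.

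The target Hes1, a repressor that holds Atoh1 down, gave 7.19, 6.77 and 7.04 in treated KO mice, against 7.23, 6.85 and 6.64 in untreated KO mice. In WT mice it gave 7.45, 7.02 and 7.45 after treatment, against 6.64, 6.79 and 6.77 without it. The KO groups overlapped and the WT groups did not. The difference in KO mice was 0.092 ± 0.17 (adjusted p = 0.737), with a 95% interval of -0.29 to 0.47.

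Atoh1, the factor that starts the secretory fate, was at 8.19, 6.96 and 6.84 in treated KO mice, against 7.68, 7.17 and 7.01 in untreated KO mice. It was at 6.64, 7.24 and 7.28 in treated WT mice, against 6.59, 6.89 and 7.10 in untreated WT mice. In both KO groups replicate 1 stood above the others, and these were the KO arrays low in acinar genes. The difference between the KO groups was 0.048 ± 0.33 (adjusted p = 0.935), and -0.38 without treated KO replicate 1 (adjusted p = 0.273). The 95% interval of -0.69 to 0.78 spans both a fall and a rise.

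Gfi1, which acts after Atoh1 and favours goblet and Paneth over enteroendocrine cells, was at 4.53, 4.69 and 4.998 in treated KO mice, against 4.92, 5.46 and 5.28 in untreated KO mice. It was at 4.72, 4.90 and 4.69 in treated WT mice, against 4.48, 4.81 and 4.98 in untreated WT mice. The KO groups overlapped by 1 array on each side. The difference in KO mice was -0.48 ± 0.18 and missed the threshold (adjusted p = 0.0559). It passed in 10 other settings, among them the replicate block (adjusted p = 0.0220), quantile normalisation (-0.54, adjusted p = 0.0211) and array weights (-0.61, adjusted p = 0.00152), and without treated KO replicate 3 (-0.60, adjusted p = 0.0285), untreated KO replicate 1 (-0.63, adjusted p = 0.0183) or untreated WT replicate 1 (-0.48, adjusted p = 0.0427). The difference was -0.52 on the 7 arrays high in acinar genes and -0.38 on the 5 low ones, where each KO group had a lone array.

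In WT mice, none of the 10 genes passed the test for methotrexate, where 0.0744% of all genes did in limma (14 genes). At an unadjusted p under 0.05 there were 2 of the 10, Hes1 and Jag2, and 11.7% of all genes. Hes1 was higher in treated WT mice by 0.57 ± 0.17 (adjusted p = 0.256), and it passed with array weights (adjusted p = 0.0156). Jag2 was higher by 0.37 ± 0.16 (adjusted p = 0.406). The WT groups did not overlap for Notch1, Jag2 and Hes1, 3 of the 10 genes, against 22.6% of all genes. Notch1 was the one of these that was lower after treatment (-0.25 ± 0.35, adjusted p = 0.789). The median difference of the 10 genes was 0.07, beside -0.0028 over all genes.

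The genotypes were also set against each other after methotrexate, a comparison that shares its treated KO arrays with the one above. Of the 10 genes 5 were higher and 1 lower in treated KO mice than in treated WT mice, where 36.9% of all genes passed, 20.2% higher and 16.8% lower. Notch1 was higher by 1.82 ± 0.35 (adjusted p = 0.00158), Notch2 by 1.33 ± 0.15 (adjusted p = 2.82e-05) and Notch3 by 1.48 ± 0.13 (adjusted p = 4.34e-06). Jag1 was higher by 0.66 ± 0.10 (adjusted p = 0.000332) and Jag2 by 1.81 ± 0.16 (adjusted p = 3.71e-06), while Dll1 was lower (-1.22 ± 0.23, adjusted p = 0.00138). These were the genes whose treated groups did not overlap, 6 of 10, against 46.2% of all genes. Markers of vessels and connective tissue moved in this comparison too, with 14 of 14 endothelial, 10 of 12 mural and 9 of 10 fibroblast markers higher, and their part was not tested. Endothelial list means were 7.32 to 7.41 in treated KO mice, against 5.86 to 5.97 in treated WT mice. Dll4 (0.022 ± 0.14), Hes1 (-0.31 ± 0.17), Atoh1 (0.28 ± 0.33) and Gfi1 (-0.028 ± 0.18) did not pass, with adjusted p of 0.933, 0.207, 0.594 and 0.932 in that order. Notch1 was higher by 2.26 on the 7 arrays high in acinar genes and by 0.91 on the 5 low ones. Atoh1 depended on the arrays used, at 1.23 on the 5 low arrays and -0.34 on the 7 high ones. On the low arrays treated KO replicate 1 was the one KO array with the drug. On the high ones treated WT replicate 2 was the one WT array with the drug. The lone array of a group shows no spread, so no test is given for these values.

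Without treatment, 0 of the 10 genes differed between KO and WT mice in limma, where 0.0106% of all genes did (2 genes). At an unadjusted p under 0.05 there were 2 of the 10, against 6.19% of all genes. Jag2 was higher in KO mice by 0.43 ± 0.16 (adjusted p = 0.786), with no overlap of the groups, as for 13.1% of all genes. Gfi1 was higher by 0.46 ± 0.18 (adjusted p = 0.786), with overlap, and passed with array weights (0.54, adjusted p = 0.0349).

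**Figure D3:**
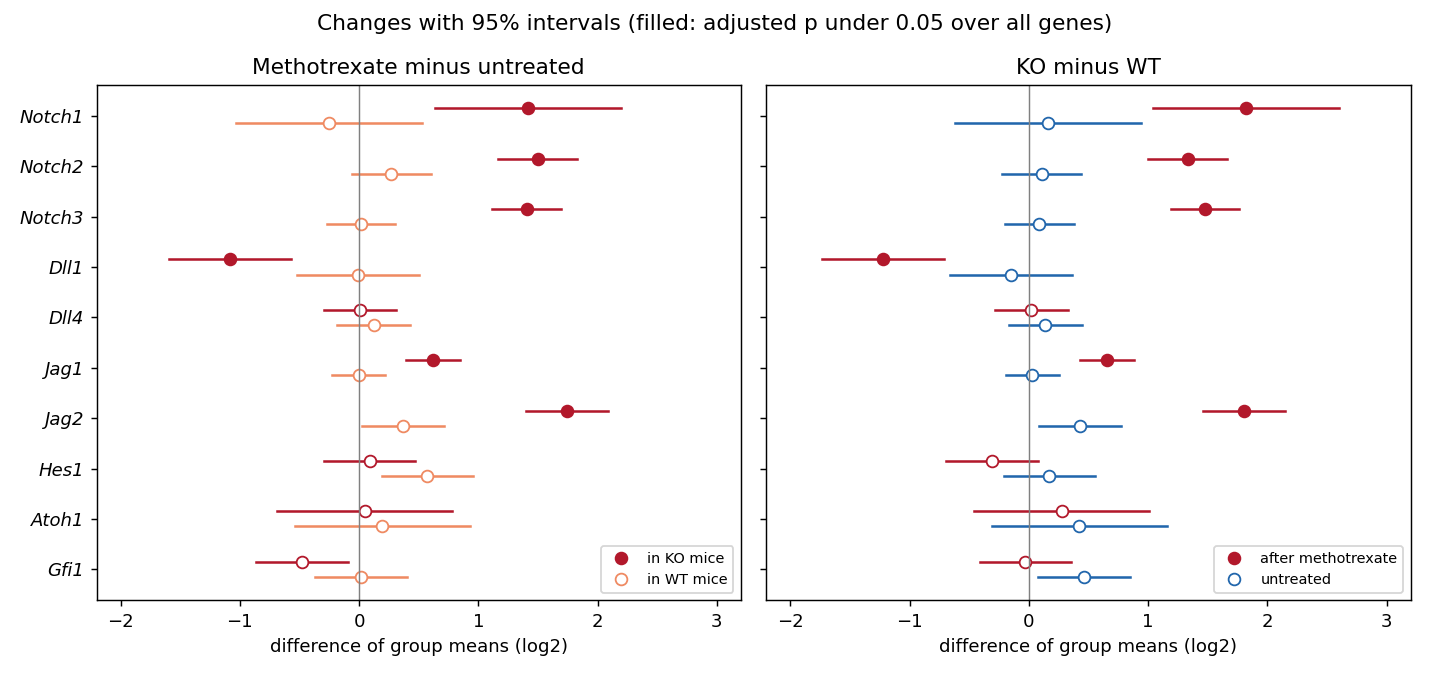
Log2 change (x axis) of each of the 10 genes with its 95% interval, for the methotrexate effect in KO and WT mice and for KO against WT with and without methotrexate. The intervals of Notch1, Notch2, Notch3, Jag1, Jag2 and Dll1 lie away from 0 in KO mice with the drug. Some intervals of uncalled genes do so too. They are those of Gfi1 for methotrexate in KO mice, Hes1 and Jag2 in WT mice, and Jag2 and Gfi1 between untreated genotypes.

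Whether methotrexate acted differently in the genotypes was tested with the interaction, the effect in KO mice minus that in WT mice. It passed for 6 of the 10 genes, and for 23.8% of all genes. The values were 1.39 ± 0.19 for Notch3 (adjusted p = 0.000226), 1.38 ± 0.22 for Jag2 (adjusted p = 0.000818), 1.23 ± 0.21 for Notch2 (adjusted p = 0.00133) and 0.63 ± 0.15 for Jag1 (adjusted p = 0.00791). For Notch1 it was 1.66 ± 0.50 (adjusted p = 0.0316), and this was lost on leaving out any 1 of treated KO replicate 2, treated WT replicate 2 or 3, untreated KO replicate 1 or 2, or any untreated WT array (adjusted p of 0.0536 to 0.0748, values of 1.58 to 1.71). For Dll1 it was -1.07 ± 0.33 (adjusted p = 0.0342), lost without treated KO replicate 2 or 3, treated WT replicate 1 or 3, untreated KO replicate 1 or any untreated WT array (adjusted p of 0.0508 to 0.0833, values of -1.13 to -0.83). On the 5 arrays low in acinar genes the values were 0.82 for Notch1, 1.05 for Notch2 and 0.63 for Jag1. On the 7 high arrays they were 2.06, 1.31 and 0.56 in that order. Fewer of the 10 genes passed on either set, and each set leaves a lone array in some group. Hes1 (-0.48 ± 0.25, adjusted p = 0.203), Gfi1 (-0.49 ± 0.25, adjusted p = 0.199), Atoh1 (-0.15 ± 0.47, adjusted p = 0.877) and Dll4 (-0.12 ± 0.20, adjusted p = 0.757) did not pass.

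The groups ordered by mean signal, high to low, put treated KO mice first for Notch1, Notch2, Notch3, Jag1 and Jag2, with no overlap with the next group. For Notch1, untreated KO and untreated WT mice followed and overlapped, and treated WT mice came last without overlapping them. For Notch2 the order went on with treated WT, untreated KO and untreated WT mice, for Notch3 with untreated KO, treated WT and untreated WT mice, and for Jag1 with untreated KO, untreated WT and treated WT mice, with overlap between all of these neighbours. For Jag2 untreated KO and treated WT mice overlapped, and untreated WT mice lay below both. Dll1 was highest in untreated WT mice, followed by treated WT and untreated KO mice, which overlapped, and lowest in treated KO mice. Hes1 went from treated WT to treated KO, untreated KO and untreated WT mice, each overlapping the next. Atoh1 and Dll4 both went from treated KO to untreated KO, treated WT and untreated WT mice, each overlapping the next. Gfi1 was highest in untreated KO mice, which did not overlap the next group, treated WT mice, and the untreated WT and treated KO mice after them overlapped.

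The rest of the pathway in KO mice was read from lists of its parts. Beside each count of called genes stands the share over all genes, 34.8% in this comparison (18.8% higher and 16.0% lower). Of 5 other receptors and ligands, Notch4, a receptor of endothelium, was higher, at 6.29, 5.90 and 6.05 in treated KO mice against 5.11, 4.84 and 4.64 in untreated KO mice (1.22 ± 0.14, adjusted p = 3.23e-05). The other 4, which are Dll3, Dlk1, Dlk2 and Dner, did not pass, and the median of the list was -0.030. The count was 3 with array weights and 2 on the 7 arrays high in acinar genes. Of 7 genes that add sugars to Notch, 2 were higher (Mfng by 1.19 ± 0.18, Poglut1 by 0.56 ± 0.18) and 1 lower (Rfng, -0.76 ± 0.14), with a median of 0.0072. Lfng, a sugar transferase of the same family as Mfng, did not pass (0.19 ± 0.29, adjusted p = 0.667). Of 8 genes of the cleavage step 1 was lower, Psenen, a subunit of gamma-secretase (-0.40 ± 0.10, adjusted p = 0.00697), and the count was 5, with 4 higher, without treated KO replicate 1, with array weights or on the 7 arrays high in acinar genes, and 4 with the acinar mean as a covariate.

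Genes that act on the ligand and receptor at the membrane moved both ways, with 4 of 13 higher, 5 lower and a median of 0.0062. Over all genes 18.8% were higher and 16.0% lower. Numb, an inhibitor of Notch, was lower (-1.34 ± 0.09, adjusted p = 9.90e-07), and its relative Numbl was higher (1.94 ± 0.18, adjusted p = 7.63e-06). Lnx1, a ligase known to act on Numb, was lower (-1.45 ± 0.16, adjusted p = 3.19e-05), and the ligase Dtx4 was higher (1.21 ± 0.10, adjusted p = 2.91e-06). Mib1, the ligase that readies ligands for signalling, did not pass (0.27 ± 0.17, adjusted p = 0.266).

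Of 19 nuclear partners 5 were higher and 3 lower, with a median of 0.11, and the count was 5, with 2 higher, on the 5 arrays low in acinar genes. Rbpj, the DNA-binding partner of Notch, was at 6.97, 7.11 and 6.92 in treated KO mice, against 6.63, 6.37 and 6.60 in untreated KO mice (0.47 ± 0.13, adjusted p = 0.0132). The coactivators Maml2 (1.25 ± 0.18, adjusted p = 0.000180) and Kat2a (0.89 ± 0.17, adjusted p = 0.00151) were higher. The corepressor Tle4 (-0.96 ± 0.19, adjusted p = 0.00186) and its relative Tle5 (-0.63 ± 0.11, adjusted p = 0.00117) were lower.

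Of 11 target genes 5 were higher and 2 lower, with a median of 0.16, and the count was 4, all higher, without untreated KO replicate 2 or with only the KO arrays in the fit. Hey1, a Notch target of vessels, was at 5.81, 5.77 and 5.33 in treated KO mice against 4.69, 4.68 and 4.70 in untreated KO mice (0.95 ± 0.12, adjusted p = 0.000100). Its relative Hey2 was higher by 0.63 ± 0.14 (adjusted p = 0.00392), the cell cycle gene Ccnd1 by 1.80 ± 0.17 (adjusted p = 1.02e-05), and Notch4 is on this list too. Nrarp, a target that feeds back on Notch, was at 5.57, 4.73 and 4.59 in treated KO mice against 6.36, 6.15 and 5.51 in untreated KO mice, and was lower (-1.04 ± 0.29, adjusted p = 0.0158). Hes5, at 3.78, 3.64 and 3.92 in treated KO mice against 3.98, 4.30 and 4.43 in untreated KO mice, was lower too (-0.46 ± 0.15, adjusted p = 0.0331). Heyl, a Notch3 target in smooth muscle, did not pass (0.16 ± 0.24, adjusted p = 0.650).

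**Figure D4:**
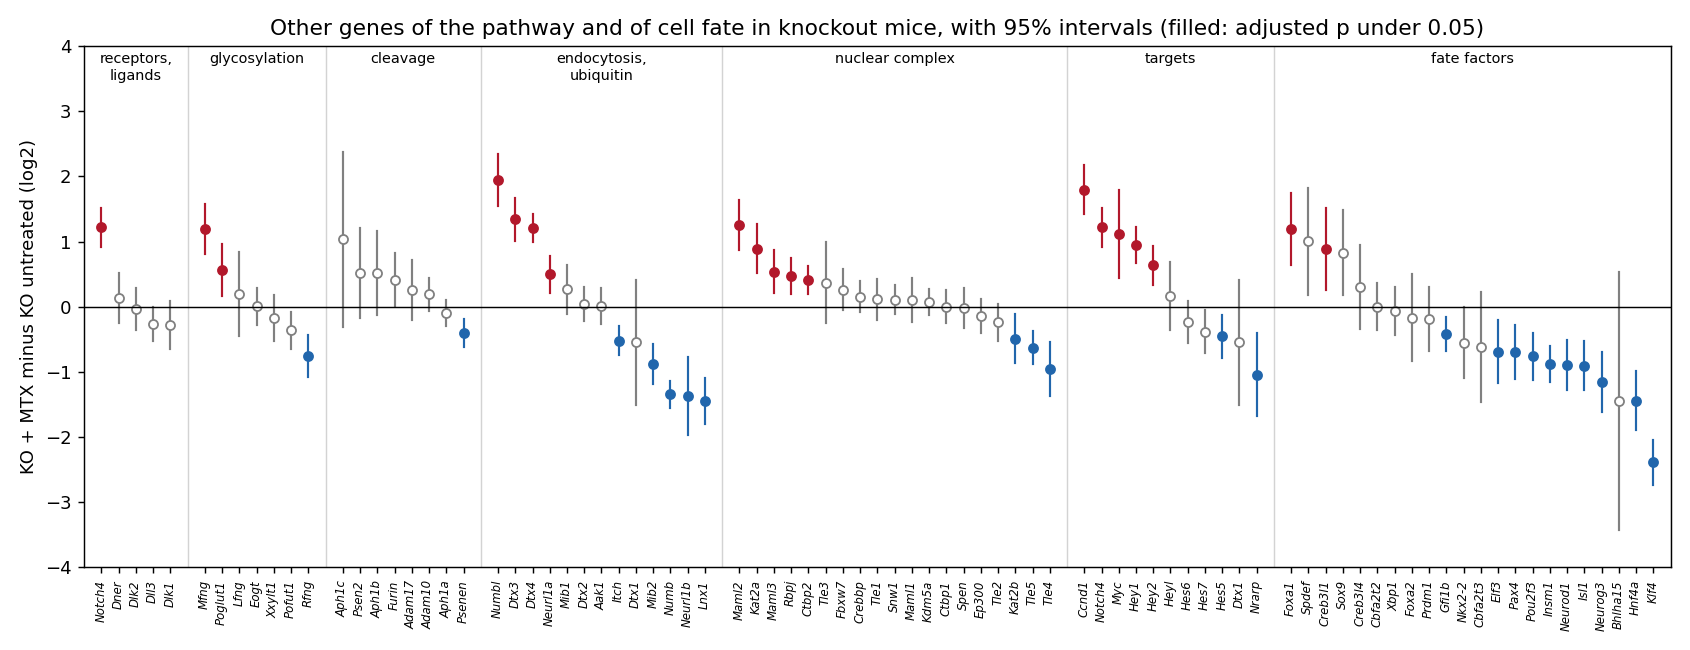
Log2 change after methotrexate in KO mice (y axis) of the other genes of the pathway, grouped by list along the x axis, with 1 point and 95% interval per gene and filled points where adjusted p was under 0.05. Endocytosis and target genes lie on both sides of 0, and of the filled points of fate factors 10 lie below 0 and 2 above.

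In WT mice none of these lists held a gene that passed the test for methotrexate, which 0.0744% of all genes did. Against treated WT mice, treated KO mice had higher Notch4 (1.199 ± 0.14), Hey1 (0.85 ± 0.12), Rbpj (0.55 ± 0.13) and Mfng (1.12 ± 0.18), and lower Rfng (-0.74 ± 0.14), Numb (-1.37 ± 0.09) and Nrarp (-1.08 ± 0.29). Lfng (1.30 ± 0.29, adjusted p = 0.00402) and Heyl (0.74 ± 0.24, adjusted p = 0.0298) were higher as well in that comparison, and so was Aph1b, a gamma-secretase subunit, by 1.39 ± 0.29 (adjusted p = 0.00276). For Hes5 (-0.21 ± 0.15, adjusted p = 0.336) and Mib1 (0.42 ± 0.17, adjusted p = 0.0742) the test was not passed. Heyl was at 4.56, 5.03 and 5.49 in treated KO mice and 4.38, 4.12 and 4.37 in treated WT mice. In both KO groups and untreated WT mice it was lowest on the array low in acinar genes, and in treated WT mice on the high one. The part of acinar RNA in its difference was not tested.

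Factors of secretory and other intestinal cell fates moved both ways in treated KO mice. Of 22 measured fate factors 10 were lower and 2 higher than in untreated KO mice, and 10 did not pass, with a median of -0.59. Over all genes 16.0% were lower and 18.8% higher. The counts were 13 lower and 4 higher on the 7 arrays high in acinar genes, and 8 lower and 4 higher on the 5 low ones. Neurog3, which starts the enteroendocrine fate, was at 3.37, 3.16 and 3.51 in treated KO mice against 4.50, 4.24 and 4.76 in untreated KO mice (-1.15 ± 0.21, adjusted p = 0.00111). Insm1, a factor of the same lineage, was lower (-0.88 ± 0.12, adjusted p = 0.000173), as were Klf4, a factor of goblet and surface cells (-2.39 ± 0.16, adjusted p = 6.22e-07), and Hnf4a, an enterocyte factor (-1.44 ± 0.21, adjusted p = 0.000217). Spdef, which matures goblet and Paneth cells, was at 8.91, 7.63 and 7.51 in treated KO mice against 6.91, 7.02 and 7.12 in untreated KO mice, with no overlap (1.004 ± 0.37, adjusted p = 0.0579). Sox9, a factor of crypt and Paneth cells, was at 8.49, 7.88 and 8.14 against 7.16, 7.28 and 7.57, also with no overlap (0.83 ± 0.30, adjusted p = 0.0503). Both missed the threshold there, and both were higher in treated KO than in treated WT mice (Spdef 1.51 ± 0.37, adjusted p = 0.00733, and Sox9 1.199 ± 0.30, adjusted p = 0.00757).

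Markers of the secretory cell types did not move one way. The counts below stand beside 18.8% of all genes higher and 16.0% lower in the same comparison. In treated KO mice against untreated KO mice, 8 of 14 enteroendocrine markers were lower and 3 higher (median -0.93), at list means of 6.07 to 6.80 against 7.07 to 7.43. The hormone genes Gcg (-3.08 ± 0.50), Sct (-1.53 ± 0.22) and Gip (-1.15 ± 0.19) were lower, and Cpe was higher, at a mean of 7.57 against 6.88. Of 8 tuft cell markers 4 were lower and 1 higher (median -0.84), with Rgs13 (-2.93 ± 0.22) and Trpm5 (-2.45 ± 0.26) lower and Avil (1.56 ± 0.23) higher. Rgs13 averaged 2.98 in treated KO mice, under the 25th percentile of gene means, so its signal there was near background. Goblet markers split into 4 higher and 3 lower of 10 (median 0.52). Ccl9 (mean 8.21 against 6.74) and the secreted protein gene Retnlb (2.05 ± 0.57) were among the higher ones. Clca1 (-2.78 ± 0.42) and Bcas1 (mean 4.93 against 5.86) were among the lower ones. Retnlb averaged 4.65 ± 1.60 in treated KO mice and 2.60 ± 0.23 in untreated KO mice (SD, n = 3 each), and the untreated KO mean was under the same percentile. Of 7 Paneth cell markers 2 were higher and 0 lower (median -0.028), and these were the antimicrobial gene Pla2g2a (2.78 ± 0.47) and the protease gene Mmp7 (1.85 ± 0.48). Absorptive markers were lower for 13 of 13 (median -3.35), for example Lct, the lactase gene (-7.81 ± 0.35). Of 10 stem cell markers 3 were lower, with Olfm4 (-4.85 ± 0.41) and Lgr5 (-0.995 ± 0.32) among them, and 1 was higher, Smoc2 (1.88 ± 0.13). The part of such shifts in the values of Dll1, Hes1, Atoh1 and Gfi1 was not tested.

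The genes whose pattern over the 12 arrays was nearest to each called gene were found by the root mean square difference of centred log2 signals. For Notch1 they were Fcna (0.204) and Smarca1 (0.215), and for Notch2 they were Rin3 (0.0945) and Hspg2 (0.120). Notch3 had Nkx2-3 (0.0926) and Nav1 (0.111) nearest, and Dll1 had Marveld3 (0.142) and Tradd (0.143). Jag1 had Atp2a2 (0.0559) and Ubr1 (0.0740), and Jag2 had Tnfrsf22 (0.154) and Ramp2 (0.170). The distances of different genes are not comparable, since a gene that varies less lies nearer to others.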

How the data were processed

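The authors deposited log2 signals per probe set made with RMA (version not stated), per the submitters' processing notes. No genome build is named for the array design. These log2 values were used as deposited. Probe sets with 1 gene symbol (21218 of 35556) were kept, and a gene with several was read from the one of highest mean, giving 18820 genes. All 12 arrays entered 1 fit in limma 3.58.1 under R 4.3.3 (lmFit and eBayes, a mean per group, 8 residual degrees of freedom), with Benjamini-Hochberg adjustment over all genes. A gene is called higher or lower at an adjusted p under 0.05. Values after ± are limma's standard errors. The fit was tested on simulated data with independent arrays. These held neither the acinar split nor the correlation of same-numbered arrays, so the test does not bear on those. Precision is limited by the number of arrays. All 10 genes lay above the 25th percentile of gene means.

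The labels give no litter or batch behind the replicate numbers. Deviations of same-numbered arrays from their group means correlated at -0.49 to 0.67, over 0.1 in 15 of 18 pairs. Both KO groups and untreated WT mice met that bound in every pair among themselves, and replicate 3 of treated WT mice did not in any. In the former groups replicate 1 alone was low in acinar genes, and in treated WT mice replicates 1 and 3 were low. Shared acinar RNA and a pairing of mice therefore cannot be told apart, and the numbers are not read as a pairing.

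The 10 genes and the lists were chosen with earlier results of these data known. The genes named are the 10, a further 12 named whatever their values (1 of them is not reported here), up to 4 called genes of smallest p per list in KO mice and up to 2 in other comparisons, and for markers of other cell types the 2 of smallest p. Nearest patterns leave out predicted genes and genes with a SD under 0.2. Dll3, Dlk1, Dlk2 and Dner were named to complete their list. Alternatives were averaging the probe sets of a gene, testing all probe sets, quantile normalisation, median centring, leaving out dim genes, only the groups compared, a replicate block, a trended robust variance, array weights, the acinar mean as a covariate, a log2 minimum of 1 and leaving out each array. The 7 arrays high and the 5 low in acinar genes were fitted separately after seeing the data.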

Additional observations from a re-analysis of the deposited data

Results flagged for a closer look

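The effect of methotrexate differed between KO and WT mice for 6 of the 10 genes by the test of the difference itself (limma's interaction, effect in KO minus effect in WT, log2). The difference was 1.66 for Notch1 (1.41 in KO mice, -0.25 in WT mice), 1.23 for Notch2 (1.4965 in KO mice, 0.27 in WT mice) and 1.39 for Notch3 (1.41 in KO mice, 0.016 in WT mice). It was 0.63 for Jag1 (0.62 in KO mice, -0.0039 in WT mice) and 1.38 for Jag2 (1.74 in KO mice, 0.37 in WT mice). For Dll1 it was -1.07 (-1.08 in KO mice, -0.0070 in WT mice). The interaction passed for 23.8% of all genes. Leaving the acinar sets aside, it passed in 14 of 22 alternatives for Notch1 and also for Dll1. For Jag1 it passed in 21 of 22, and for Notch2, Notch3 and Jag2 in all 22.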

How the results depend on the processing

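Over all alternatives the called values of the 10 genes kept their direction (444 values, of which 25 lost the call), and of 796 values not called 17 gained a call and 66 changed sign without one. The count of called genes was 6 or 7 of 10 for methotrexate in KO mice on leaving out each array, 6 for KO against WT after methotrexate, 0 for methotrexate in WT mice and for untreated KO against WT, and 4 to 6 for the interaction. Array weights gave 1 called gene for methotrexate in WT mice (Hes1) and 1 for untreated KO against WT (Gfi1), and called Hes1 and Gfi1 in the interaction (-0.56 and -0.55) and Hes1 between treated genotypes (-0.51). The 5 arrays low in acinar genes gave 3 called genes in the interaction. With the acinar mean as a covariate Gfi1 passed in the interaction (-0.58, adjusted p = 0.0211). A log2 minimum of 1 took Jag1 out by its size, and left 4 of the fate factors, 1 of the nuclear partners and 5 of the mural markers.

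An array's best match had its own replicate number in 23 of 36 comparisons, which does not separate a pairing of mice from shared acinar RNA. The replicate block called Gfi1 for methotrexate in KO mice (-0.48, adjusted p = 0.0220) and changed no other call of the 10 genes. The interaction could not be fitted from the compared groups alone, since it uses all 4, and was not run.

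The values that changed sign, none of them called, were as follows. Under quantile normalisation they were Dll4 (-0.086) and, in WT mice, Gfi1 (-0.033) for methotrexate, Dll4 (-0.060) for treated genotypes, and Jag1 (-0.061) for untreated genotypes. Under median centring they were Dll4 (-0.039) and Atoh1 (0) in KO mice, Notch3 (-0.021) and Gfi1 (-0.023) in WT mice, Dll4 (-0.025) between treated genotypes and Jag1 (-0.0066) between untreated ones. With array weights they were Atoh1 (-0.16) in KO mice, Notch3 (-0.060), Dll1 (0.059) and Gfi1 (-0.063) in WT mice, Dll4 (-0.023) and Atoh1 (-0.0025) between treated genotypes, Notch3 (-0.019), Dll4 (-0.037) and Jag1 (-0.11) between untreated ones, and Dll4 (0.013) in the interaction. With the acinar covariate it was Jag1 (0.0088) in WT mice. On the 7 arrays high in acinar genes they were Atoh1 (-0.19) in KO mice, Notch3 (-0.047), Dll4 (-0.011) and Jag1 (0.0065) in WT mice, Dll4 (-0.062) and Atoh1 (-0.34) between treated genotypes, Notch3 (-0.11), Dll4 (-0.083), Jag1 (-0.043) and Hes1 (-0.039) between untreated ones, and Dll4 (0.022) in the interaction. On the 5 low arrays they were Hes1 (-0.046) in KO mice, Dll1 (0.16) and Jag1 (0.10) in WT mice, Dll1 (0.40) between untreated genotypes and Atoh1 (0.14) in the interaction. Leaving out single arrays, the ranges that crossed 0 were, in KO mice, -0.094 to 0.11 for Dll4, -0.043 to 0.25 for Hes1 and -0.38 to 0.29 for Atoh1. In WT mice they were -0.077 to 0.083 for Jag1, -0.13 to 0.14 for Notch3, -0.087 to 0.10 for Dll1 and -0.12 to 0.13 for Gfi1. Between treated genotypes they were -0.080 to 0.11 for Dll4, -0.15 to 0.52 for Atoh1 and -0.16 to 0.076 for Gfi1, and between untreated ones -0.39 to 0.0023 for Dll1, -0.062 to 0.21 for Notch3 and -0.043 to 0.12 for Jag1. In the interaction they were -0.58 to 0.097 for Atoh1 and -0.22 to 0.0010 for Dll4. The cause was not tested for any of these.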
